A study of Mus musculus with 7 samples.

Results

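Hypoxia response and glycolysis genes were followed in macrophages sorted from mouse tumors. The set holds 32 genes: 17 of glucose uptake, glycolysis and lactate handling, 3 of oxygen sensing, 3 of the mitochondrion and 9 other genes that low oxygen is known to induce. They were chosen by name and by role, with no threshold on their values, although earlier results of these data were known. All 32 were among the 24084 genes listed in at least 1 library, and all 32 were among the 16226 genes that passed the filter on low counts.

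The cells were tumor-associated macrophages, sorted by flow cytometry as F4/80+ cells from established Lewis lung carcinoma, a line of mouse lung cancer cells injected under the skin. The 3 Dicer1-deleted libraries came from LysM-Cre;Dicer-/- mice, which lack Dicer1, the ribonuclease that cuts microRNA precursors, in myeloid cells. The 4 control libraries came from LysM-Cre;Dicer+/+ mice. Both the Cre allele and the Dicer lox/lox alleles were homozygous according to the labels, so the controls carried the same Cre with an intact Dicer1. Cre was expressed from the lysozyme M locus, which is also active in neutrophils and monocytes and need not recombine every macrophage. The labels used here give no age. Whether each library is a separate animal is not stated, so the p-values reflect the library-to-library spread only, which may be technical.

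When oxygen is scarce, the prolyl hydroxylases Egln1, Egln2 and Egln3 slow down, and the transcription factor subunit Hif1a is no longer marked for destruction. Hif1a pairs with Arnt and binds short DNA elements with the core ACGTG or GCGTG, which raises glucose transporters, glycolytic enzymes, genes of mitochondrial clearance and secreted factors. Macrophages in poorly perfused tumor regions are known for this programme, and inflammatory activation raises several of the same genes in normal oxygen.

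Promoters were read to show where such cores lie in the genes on which the results below turn. In the RefSeq promoter table of GRCm38.p6, which gives 250 bases before to 50 bases after each transcript start, 29 of the 32 genes were matched, with 42 windows between them. The letters ACGTG or GCGTG, searched on both strands, were found in at least 1 window of 27 of these 29 genes and in 78.6% of their windows. They were found in 60.3% of the windows of all genes tested and in 43.8% of all windows in the table. Counted by gene, 66.2% of the genes tested held them in at least 1 window. The reversed letters GTGCA or GTGCG, searched the same way, were in 81.0% of the windows of the 29 genes, in 62.5% of those of genes tested and in 53.1% of all. By gene, the reversed letters were in 28 of the 29 and in 67.2% of the genes tested. Both letter pairs were more frequent in these promoters than in the other windows. The 250 bases before the start are shown for 4 genes, in the direction of transcription, with each match in capitals. Matches that read CACGT or CACGC are the same cores on the opposite strand, and CACGTG holds 1 on each strand.

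These are the collagen prolyl hydroxylase subunit P4ha2 at chr11:54100674-54100923 (plus strand), the peptide hormone gene Adm at chr7:110627407-110627656 (plus strand), the mitophagy receptor Bnip3 at chr7:138909507-138909756 (minus strand) and the hexokinase Hk2 at chr6:82774455-82774704 (minus strand).
P4ha2: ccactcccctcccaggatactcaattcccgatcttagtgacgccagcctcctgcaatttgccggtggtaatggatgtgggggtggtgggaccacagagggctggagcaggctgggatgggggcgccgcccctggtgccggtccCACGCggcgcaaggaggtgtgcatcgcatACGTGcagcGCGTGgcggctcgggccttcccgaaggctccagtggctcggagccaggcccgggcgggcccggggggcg
Adm: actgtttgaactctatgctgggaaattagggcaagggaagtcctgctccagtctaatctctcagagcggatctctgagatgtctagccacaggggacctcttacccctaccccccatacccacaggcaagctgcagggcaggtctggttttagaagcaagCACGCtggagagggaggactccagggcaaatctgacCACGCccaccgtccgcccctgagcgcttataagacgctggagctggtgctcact
Bnip3: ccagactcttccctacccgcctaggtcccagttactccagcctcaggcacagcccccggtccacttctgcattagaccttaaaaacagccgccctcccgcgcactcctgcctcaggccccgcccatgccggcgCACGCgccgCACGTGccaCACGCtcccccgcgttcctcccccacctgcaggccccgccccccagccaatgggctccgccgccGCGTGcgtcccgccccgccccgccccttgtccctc
Hk2: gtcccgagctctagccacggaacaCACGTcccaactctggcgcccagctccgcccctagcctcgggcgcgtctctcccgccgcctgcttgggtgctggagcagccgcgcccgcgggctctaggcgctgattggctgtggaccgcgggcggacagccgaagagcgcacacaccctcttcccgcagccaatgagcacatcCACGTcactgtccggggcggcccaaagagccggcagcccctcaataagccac
The printed stretch held 3 matches for P4ha2, 2 for Adm, 5 for Bnip3 and 2 for Hk2. For P4ha2 the RefSeq start lies inside the span that GENCODE gives the gene. The most in any window of the 29 matched genes was 7, in Ldha.

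The libraries held 43.0 to 51.2 M reads placed uniquely, and values are TMM-scaled CPM, the reads of a gene per M reads of its library. Dicer1 itself was at 7.85, 6.86 and 7.85 CPM in the 3 Dicer1-deleted libraries and at 15.7, 15.8, 18.6 and 17.1 CPM in the 4 controls, without overlap, which matches the labels although its edgeR adjusted p was 0.150. Adgre1, which encodes F4/80, was present in all libraries at 233 to 1072 CPM, and the epithelial marker Epcam was at or near 0 in all. Dicer1-deleted replicate 2 stood apart. Its short transcripts were higher relative to its long ones by 0.81 on the log2 scale, against -0.49 to 0.48 in the others. Its Adgre1 level was the lowest. The sum of 13 macrophage genes was 18075 CPM in it, against 11515 and 11970 CPM in Dicer1-deleted replicates 1 and 3. Control replicate 2 had a like sum, at 18180.5 CPM. The median log2 deviation of these genes from their mean over the 7 libraries was -0.07 in Dicer1-deleted replicate 2. It was 0.06 and 0.04 in Dicer1-deleted replicates 1 and 3. Of the other cell type markers, the summed endothelial list (7 of 8 genes matched) was at 77.4, 54.7 and 43.4 CPM in the Dicer1-deleted libraries and at 12.9, 8.08, 13.5 and 24.5 CPM in the controls. Most of it was Pecam1, with the defining gene Cdh5 between 0.135 and 1.49 CPM. The summed B cell list was at 112 to 152 CPM against 35.1 to 71.4 CPM. The summed T and NK cell list was at 21.5, 11.2 and 12.1 CPM against 8.01, 3.77, 5.51 and 7.52 CPM, with a positive log2 fold change for 10 of 11 genes tested. For neutrophils 8 of 9 genes tested had a positive log2 fold change, while the sums overlapped at 265 to 324 CPM against 181 to 638 CPM. The summed list of 8 genes of handling stress, such as Fos and Hspa1a, was lower without overlap. It was at 1526, 1307 and 1419 CPM against 1737, 1955, 2226 and 1627 CPM, with 4 of 8 log2 fold changes positive. The part of these lists in the results below was not tested. In bulk RNA, fewer cells of a type and less RNA per cell cannot be told apart.

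None of the 32 genes passed an adjusted p of 0.05 in edgeR, where 4 of all genes tested, 0.0247%, passed. At an unadjusted p under 0.05, 2 of the 32 passed, P4ha2 and Ankrd37, both lower in Dicer1-deleted macrophages, beside 4.14% of all genes tested that passed in that direction and 8.01% in either. In DESeq2, P4ha2 passed alone, beside 1.57% of all genes that passed there as lower and 2.50% in either direction. The groups did not overlap for P4ha2 and Hk2, again both lower, beside 5.44% of all genes in that direction. No member was without overlap in the higher direction, where the share of all genes was 3.86%. The log2 fold change, Dicer1-deleted minus control, was positive for 11 of the 32 genes, or 34.4%, against 52.6% of all genes, and its median was -0.11 against 0.03. Both figures moved with 1 library: without Dicer1-deleted replicate 2 the median was -0.31 with 7 positive, and without control replicate 4 it was 0.02 with 16 positive.

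**Figure D1:**
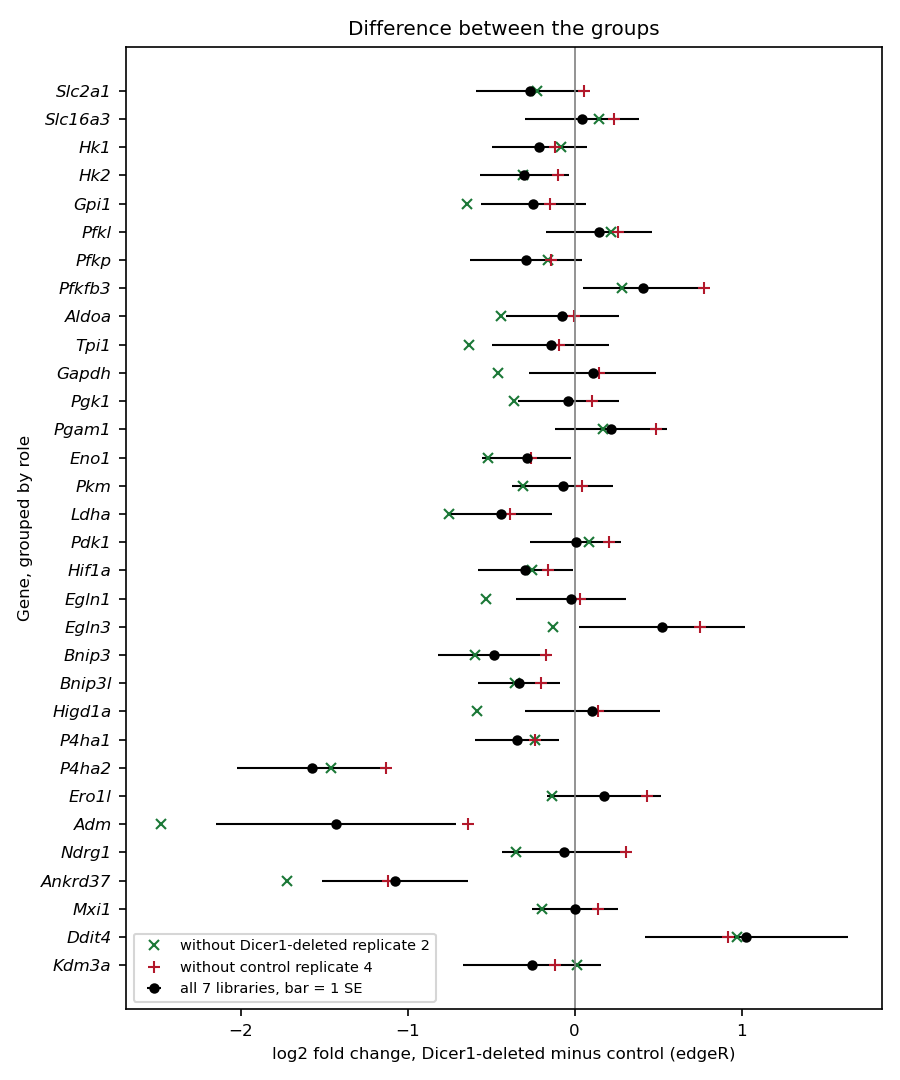
Log2 fold change of each of the 32 genes (x axis, Dicer1-deleted minus control, edgeR), with genes grouped by role on the y axis. Black points and bars give the estimate from all 7 libraries and 1 SE, crosses the estimate without Dicer1-deleted replicate 2 and plus signs that without control replicate 4. P4ha2, Adm and Ankrd37 lie lowest and Ddit4 highest, and none of the 32 passed the adjusted threshold.

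Transport opens the pathway. Slc2a1, the main glucose importer of activated macrophages, was at 171, 165 and 195 CPM in the Dicer1-deleted libraries and at 184, 162, 167 and 342 CPM in the controls. Control replicate 4 was high and the other 6 libraries lay close together, so the groups overlapped, with a difference of -0.27 ± 0.32 on the log2 scale (SE, edgeR adjusted p = 0.996). Slc16a3, which exports lactate, was at 32, 30.8 and 44.7 CPM against 21.3, 24.7, 45.1 and 47.8 CPM. Control replicates 1 and 2 were its lowest libraries and control replicate 4 its highest. Its log2 fold change was 0.05 ± 0.34 (SE).

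In the upper steps of glycolysis, 6 of 8 genes had a negative log2 fold change and none was called. Hk2, the inducible hexokinase that traps glucose in the cell (chromosome 6, 82725025 to 82774454 of GRCm38), was at 107, 110.4 and 112 CPM in the Dicer1-deleted libraries. It was at 119, 114, 121 and 188 CPM in the controls. Every control was higher than every Dicer1-deleted library, but 3 of the 4 controls exceeded the highest Dicer1-deleted library by little and control replicate 4 held most of the difference. For Hk2 the log2 fold change was -0.30 ± 0.26 (SE, edgeR adjusted p = 0.968) and -0.10 without that library.

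Pfkfb3, which makes the activator of phosphofructokinase, was at 55.1, 61.7 and 43.8 CPM in the Dicer1-deleted libraries and at 30.9, 24.3, 38.5 and 67.8 CPM in the controls. All Dicer1-deleted libraries lay above control replicates 1, 2 and 3 and below control replicate 4. Its log2 fold change was 0.41 ± 0.36 (SE, edgeR adjusted p = 0.967), and 0.78 without control replicate 4. Aldoa, the aldolase that splits fructose bisphosphate and the most abundant of the 32 genes in CPM, was at 1749, 3559 and 2083 CPM against 2599, 2921, 1872 and 2975 CPM. Tpi1, which interconverts the triose phosphates, was at 445, 890.2 and 369.9 CPM against 699, 624, 495 and 692 CPM. In both genes Dicer1-deleted replicate 2 was the highest of all libraries, and without it their log2 fold changes went from -0.07 to -0.44 and from -0.14 to -0.63. Hk1, Gpi1, Pfkl and Pfkp, the other enzymes of these steps, had log2 fold changes of -0.21, -0.25, 0.14 and -0.29, each with groups that overlapped and an SE of 0.28 to 0.33.

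In the lower steps, from Gapdh to the branch points of pyruvate, 3 of 7 log2 fold changes were positive and none was called. Ldha, which reduces pyruvate to lactate, was at 902, 1555 and 924 CPM in the Dicer1-deleted libraries and at 1621, 1586, 1210.3 and 1709.9 CPM in the controls. Dicer1-deleted replicates 1 and 3 were below every control and replicate 2 was within the control range. For Ldha the log2 fold change was -0.44 ± 0.30 (SE, edgeR adjusted p = 0.896), and -0.75 without Dicer1-deleted replicate 2, still not past the threshold. Pkm, the pyruvate kinase of most tissues, was at 1347, 1728 and 944 CPM against 1369, 1345, 1174 and 1739 CPM. Eno1, the common enolase, was at 311, 455 and 291 CPM against 450.2, 438, 380.1 and 454 CPM. Both overlapped between the groups, with log2 fold changes of -0.07 ± 0.30 and -0.29 ± 0.27 (SE).

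Pdk1, the kinase that keeps pyruvate out of the tricarboxylic acid cycle by inhibiting pyruvate dehydrogenase, was at 41.8, 33.0 and 38 CPM in the Dicer1-deleted libraries. In the controls it was at 29.8, 29.5, 38.6 and 51.8 CPM, a range that enclosed all Dicer1-deleted values. Its log2 fold change was 0.01 ± 0.27 (SE). Gapdh, Pgk1 and Pgam1 had log2 fold changes of 0.11, -0.04 and 0.22, with groups that overlapped. Gapdh, Pgk1, Pgam1, Ldha and Aldoa each have named processed pseudogenes, and 1.55% to 5.92% of their reads were placed on several genes, so their levels are uncertain.

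Of the oxygen sensors, Hif1a was at 141, 143 and 169 CPM in the Dicer1-deleted libraries and at 147, 136, 222 and 235 CPM in the controls. Control replicates 3 and 4 were above all others and control replicate 2 was the lowest of the 7, and the difference was -0.29 ± 0.29 on the log2 scale (SE, edgeR adjusted p = 0.993). The mRNA does not show the amount of Hif1a protein, which oxygen controls after translation. Egln1, the main oxygen sensor among the prolyl hydroxylases, was at 23.2, 52.5 and 23.5 CPM against 34.8, 32.8, 29.5 and 37.2 CPM. Its 4 controls lay within a narrow range, and the Dicer1-deleted libraries lay on both sides of it. Egln3, the isoform most readily induced by hypoxia, was at 3.90, 19.6 and 10.4 CPM against 8.59, 6.42, 5.10 and 11.3 CPM. Its lowest and highest values were both in Dicer1-deleted libraries, and its log2 fold change of 0.52 ± 0.50 (SE) became -0.13 without replicate 2.

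Of the mitochondrial genes, Bnip3, a receptor for mitophagy, was at 326, 410.1 and 337 CPM in the Dicer1-deleted libraries. It was at 393, 468, 345 and 792 CPM in the controls, with control replicate 4 far above the other 6 libraries, which overlapped. On the log2 scale the difference was -0.48 ± 0.34 (SE, edgeR adjusted p = 0.904), and -0.17 without control replicate 4. Its relative Bnip3l had a log2 fold change of -0.33 and Higd1a, a respiratory chain assembly factor, one of 0.11. Both overlapped between the groups.

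The largest negative fold changes were among the other hypoxia-induced genes. P4ha2, a subunit of the enzyme that hydroxylates collagen prolines (chromosome 11, 54100095 to 54131665), was at 5.94, 4.83 and 6.75 CPM in the Dicer1-deleted libraries. It was at 10.2, 18.8, 9.37 and 31.2 CPM in the controls, so that every control was above every Dicer1-deleted library while the controls themselves differed 3.33-fold. The log2 fold change was -1.57 ± 0.45 (SE), with an edgeR adjusted p of 0.30. In DESeq2 it was -1.56 ± 0.47 (SE) with an adjusted p of 0.0384. That DESeq2 call was kept without control replicate 1 or 3 and lost without any of the other 5 libraries, with adjusted p from 0.0831 to 0.160 in DESeq2. An L5 code in the titles was shared by Dicer1-deleted replicate 1 and control replicates 1, 3 and 4. Among these the log2 ratio of group means was -1.51. Dicer1-deleted replicates 2 and 3 and control replicate 2 had L4, and there it was -1.70. Each ratio has only 1 library on 1 side. With the L code as covariate the edgeR log2 fold change was -1.60, with an adjusted p of 0.487. Without control replicate 4 the edgeR log2 fold change was -1.13. Its paralog P4ha1, which encodes the alternative catalytic subunit, was at 178, 146 and 196 CPM against 194, 203, 214 and 267 CPM. Dicer1-deleted replicate 3 exceeded control replicate 1, so the groups overlapped, and the log2 fold change was -0.34 ± 0.25 (SE, edgeR adjusted p = 0.928).

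Ankrd37, an ankyrin repeat gene that hypoxia induces (chromosome 8, 45996902 to 46005707), was at 7.76, 24.0 and 10.1 CPM in the Dicer1-deleted libraries and at 28.1, 43.2, 19.3 and 26.8 CPM in the controls. Replicates 1 and 3 were below every control and replicate 2 was within the control range. The difference was -1.07 ± 0.44 on the log2 scale (SE, edgeR adjusted p = 0.556). Ankrd37 overlaps Ufsp2 and Lrp2bp on the opposite strand, the library kit keeps no strand, and 29.4% of its reads on average were placed on several genes, so its level is uncertain.

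Adm encodes adrenomedullin, a vasodilator peptide (chromosome 7, 110627661 to 110629820). It was at 3.28, 13.9 and 3.33 CPM in the Dicer1-deleted libraries and at 8.05, 14.5, 9.33 and 41.6 CPM in the controls. Its order of libraries resembled that of Ankrd37 in the Dicer1-deleted group, with replicates 1 and 3 below every control and replicate 2 among them. The log2 fold change was -1.43 ± 0.72 (SE, edgeR adjusted p = 0.716), ranging from -2.48 without Dicer1-deleted replicate 2 to -0.64 without control replicate 4. Without Dicer1-deleted replicate 2, DESeq2 called Adm (adjusted p = 0.00395) and Ankrd37 (adjusted p = 0.000788) as lower, and no longer P4ha2 (adjusted p = 0.106), while edgeR called no member.

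**Figure D2:**
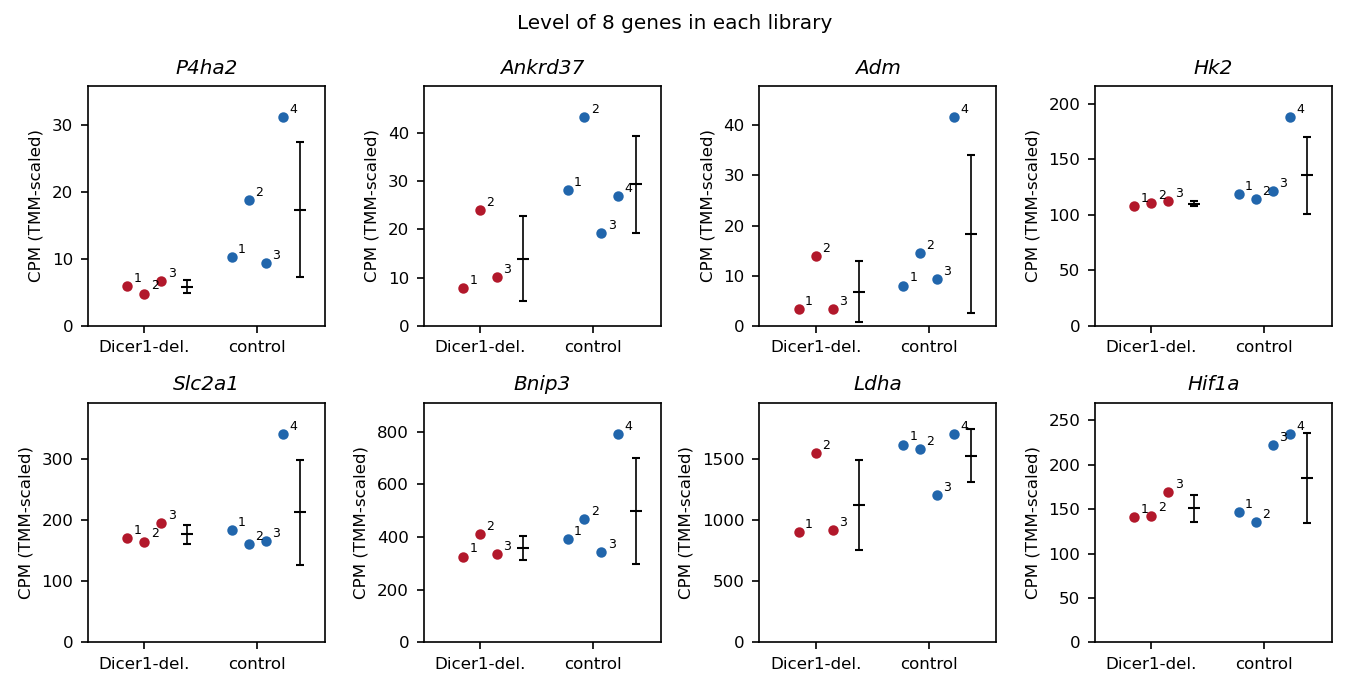
Level of 8 of the genes in TMM-scaled CPM (y axis, linear from 0) in each Dicer1-deleted library (red) and each control library (blue), with the replicate number beside each point. Horizontal marks and bars give the mean and SD of each group. Control replicate 4 is the highest library in every panel except Ankrd37, and for P4ha2 and Hk2 all controls lie above all Dicer1-deleted libraries.

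Ddit4, a brake on growth signalling through mTOR, was low throughout. It was at 2.37, 1.83 and 0.939 CPM in the Dicer1-deleted libraries and at 0.545, 0.404, 1.75 and 0.638 CPM in the controls. Control replicate 3 reached the Dicer1-deleted range, and the log2 fold change, the largest positive one of the 32, was 1.03 ± 0.61 (SE, edgeR adjusted p = 0.812). Ndrg1, a stress-responsive gene, was at 43.6, 70.8 and 42.9 CPM against 42.3, 37.7, 46.8 and 92.7 CPM. Control replicate 4 was its highest library and control replicate 2 its lowest, and the log2 fold change was -0.07 ± 0.37 (SE). Ero1l, an oxidase of protein folding, Mxi1, a Myc antagonist, and Kdm3a, a histone demethylase, had log2 fold changes of 0.18, 0.00 and -0.26 with overlapping groups. Of the 9 genes in this class, 6 had a negative log2 fold change. Reads placed on several genes were 22.5% of those of Ndrg1 and 18.3% of those of Gpi1. Including Ankrd37, 16 of the 32 genes overlap the annotated span of a gene on the opposite strand. The spans include introns, and overlap of exons was not examined. Reads from a stretch that both genes share cannot be told apart by strand.

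Within the control group the 32 genes had a median coefficient of variation (SD over mean of the 4 controls) of 27.7%. It was 17.8% without control replicate 4, over fewer libraries than the values that follow. The figure for all genes without that library is not given here. Over all 4 controls the median was 29.9% for all genes tested and 23.7% for the 6358 genes with a control mean of at least 20 CPM. Against the median of genes with a control mean within 1.5-fold of their own, 18 of the 32 were more variable. The most variable were Adm (85.7%), Ddit4 (74.1%), P4ha2 (58.2%), Pfkfb3 (47.5%) and Ndrg1 (46.4%). The steadiest were Eno1 (7.95%), Egln1 (9.70%), Ldha (14.4%), P4ha1 (14.9%) and Tpi1 (15.1%).

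A single library carried much of this spread. Control replicate 4 was the highest of the 4 controls for 25 of the 32 genes, or 78.1%, against 23.5% of all genes tested, and the lowest for none, against 25.6%. It was the highest of all 7 libraries for 17 genes (53.1%, against 12.9% of all), and it exceeded the next control by over 1.5-fold for 7 (21.9%, against 4.76%). Those 7 were Adm, P4ha2, Ndrg1, Pfkfb3, Slc2a1, Bnip3 and Hk2, at 3.92, 2.44, 2.19, 2.17, 2.00, 1.97 and 1.59 times the mean of the other 3 controls. The 7 genes for which another control was highest were Tpi1, Higd1a, Gapdh, Ankrd37, Pfkl, Kdm3a and Ddit4. The median log2 ratio of control replicate 4 to the other controls was 0.49 for the 32 genes and -0.01 for all. Attention was drawn to this library after its values were seen, so these figures are a description and no test was made.

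**Figure D3:**
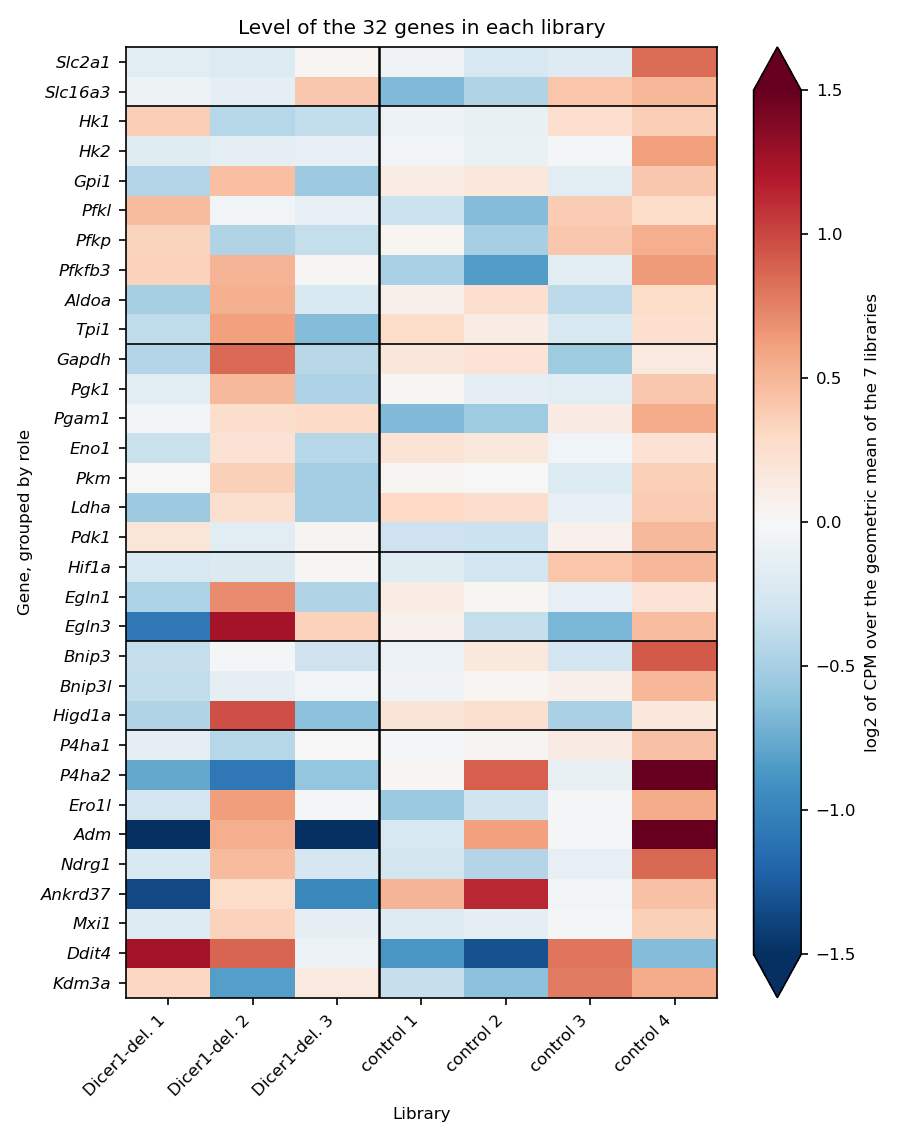
Level of each of the 32 genes (y axis, grouped by role) in each of the 7 libraries (x axis), as log2 of CPM over the geometric mean of the 7 libraries; red is higher and blue lower, and the colour scale ends at 1.5 in each direction. The column of control replicate 4 is red for most genes, and that of Dicer1-deleted replicate 2 is red for Gapdh, Egln1, Egln3 and Higd1a.

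The pattern did not extend evenly to the rest of the pathway. Of 36 other targets of hypoxia-inducible factors that were tested, control replicate 4 was the highest control for 16, with a median log2 ratio to the other controls of 0.24. Of 25 other glycolysis isoforms and regulators it was highest for 7 (median -0.08), of 16 other genes of oxygen sensing for 3, of 29 genes of pyruvate dehydrogenase and the tricarboxylic acid cycle for 2, and of 9 pentose phosphate genes for 3. For the tricarboxylic acid list, control replicates 1 and 3 were highest for 13 genes each. Scaling changed little, since control replicate 4 was the highest control for 25 to 26 of the 32 genes under the other scalings and with multiply placed reads. It was highest for 8 of 12 genes with transcripts of up to 2500 nt and for 17 of 20 with longer ones.

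**Figure D4:**
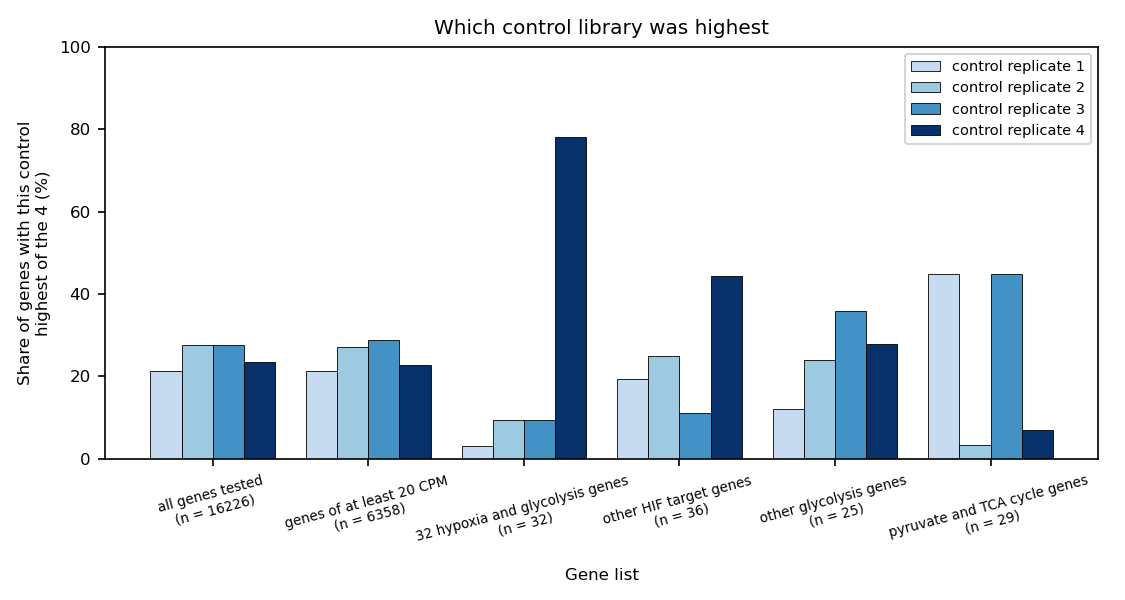
Share of genes (y axis, percent) for which each control library (shades of blue) was the highest of the 4 controls, for all genes tested, genes of at least 20 CPM, the 32 genes and 3 related lists (x axis). Control replicate 4 reaches 78.1% for the 32 genes against 23.5% for all genes tested.

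Several other measurements moved with that library. All 5 red blood cell genes were higher in control replicate 4 than in the other controls, with a sum of 225 CPM against 90.0, 124 and 33.1 CPM, and in Dicer1-deleted replicate 2 the sum was 669 CPM. The endothelial sum was also the highest of the controls, at 24.5 CPM. The sum of 9 matched carcinoma or epithelial genes was 14.2 CPM against 2.29 to 11.7 CPM in the other controls, nearly all of it Cdh1, with Epcam and Cldn7 at 0. Control replicate 4 was the lowest control for 5 of 6 monocyte genes, with a median log2 ratio to the other controls of -1.87, and their sum was 543 CPM against 971, 509 and 1977 CPM. The macrophage sum was 11680.3 CPM against 9364 to 18180.5 CPM. Their part in the pattern was not tested.

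Dicer1-deleted replicate 2 was the other library that set values apart, among short and long transcripts. All 12 genes with transcripts of up to 2500 nt, such as Adm, Ankrd37, Tpi1 and Ldha, were higher in it than in the mean of Dicer1-deleted replicates 1 and 3, by a median of 0.78 on the log2 scale. All tested genes of that length were higher by a median of 0.26. Of the 20 genes with longer transcripts, 10 were higher, with a median of -0.05, against -0.36 for all genes of that length. Egln3, Gapdh, Egln1 and Gpi1, placed among the longer ones, were higher in it by 1.45, 1.28, 1.17 and 0.95. Lengths are those of the longest annotated transcript, and the transcript expressed, as for Gapdh, may be shorter. By annotated length, the 32 genes thus had a higher median than all genes of like length in both classes. With the trend on transcript length removed, the median log2 fold change of the 32 genes was -0.08 with 14 positive, and none was called.

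**Figure D5:**
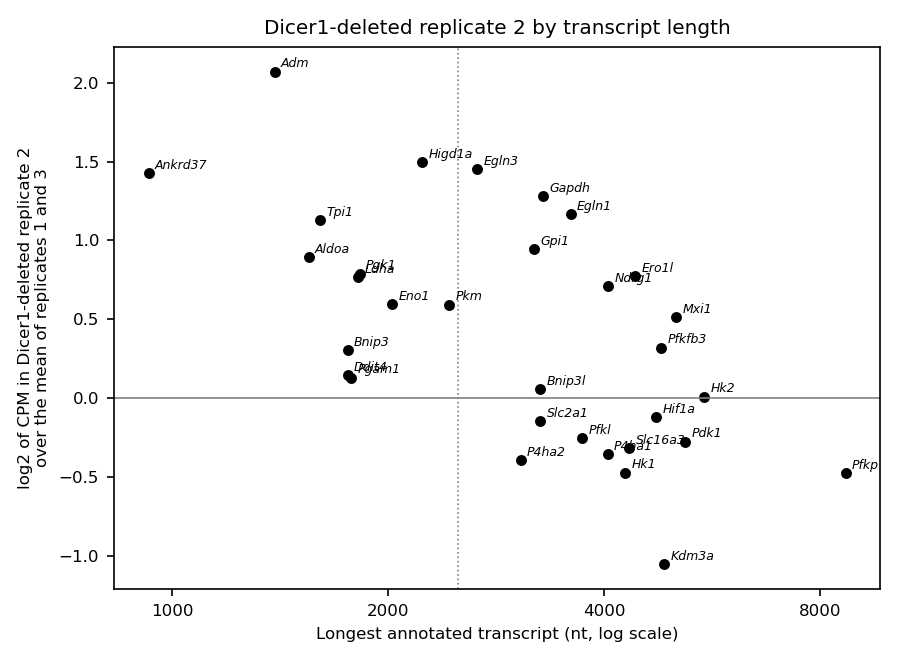
Log2 ratio of CPM in Dicer1-deleted replicate 2 to the mean of Dicer1-deleted replicates 1 and 3 (y axis) against the length of the longest annotated transcript (x axis, nt, log scale), for each of the 32 genes. The dotted line marks 2500 nt; all 12 genes to its left lie above 0, and 10 of the 20 to its right do.

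The isoforms present were compared per length, in the deposited RPKM values, which divide reads by gene length and depth. Hk2 was the leading hexokinase in the controls at 17.8 to 31.3 RPKM, with Hk3 at 9.17 to 18.2 and Hk1 at 2.74 to 4.04 RPKM. In the Dicer1-deleted libraries Hk3 was at 19.3 to 33.6 RPKM and Hk2 at 15.5 to 19.2 RPKM, so that Hk3 was at or above Hk2 there. Pfkp, at 13.6 to 29.7 RPKM in the controls, and Pfkl, at 8.69 to 20 RPKM, overlapped, and Pfkm was lower at 0.770 to 1.61 RPKM. Ldha, at 425 to 570 RPKM, was far above Ldhb, at 1.63 to 3.44 RPKM. The Dicer1-deleted libraries held Ldhb at 0.530 to 1.28 RPKM, below every control, and neither edgeR nor DESeq2 called it. In the controls Slc2a1, at 52.9 to 119 RPKM, was far above Slc2a3, at 0.0900 to 0.870 RPKM. Hif1a, at 21.5 to 39.6 RPKM, was likewise far above Epas1, which encodes the related subunit HIF-2 alpha, at 0.170 to 0.670 RPKM. Egln1, at 8.72 to 10.5 RPKM, was above Egln2 and Egln3, which overlapped at 1.67 to 4.15 and 2.01 to 4.22 RPKM. P4ha1, at 46.1 to 64.5 RPKM, was above P4ha2, at 1.49 to 4.71 RPKM.

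Genes of the pathway outside the 32 were read from the same fit, with lists chosen by function, and edgeR called none of them at an adjusted p of 0.05. At an unadjusted edgeR p under 0.05, 7 of 25 other glycolysis genes passed, 2 as higher and 5 as lower. Of 16 other oxygen sensing genes 4 passed, 2 in each direction. Of 36 other targets 5 passed, 1 as higher and 4 as lower. The share of all genes tested was 8.01% in either direction. Of 25 other glycolysis isoforms and regulators tested, 8 log2 fold changes were positive, with a median of -0.12. Among these 25, 1 gene was without overlap as higher and 4 as lower. The shares of all genes tested were 3.86% and 5.44%. Hk3, the hexokinase of myeloid cells, was at 124, 138 and 69.2 CPM in the Dicer1-deleted libraries and at 34.3, 40.3, 43.4 and 67.4 CPM in the controls, without overlap. Its log2 fold change was 1.25 ± 0.33 (SE), with an edgeR adjusted p of 0.257 and a DESeq2 adjusted p of 0.0302. It was not called by DESeq2 once Dicer1-deleted replicate 1 or 2 or control replicate 1, 2 or 3 was left out, with DESeq2 adjusted p from 0.120 to 0.195. Eno2, the neuronal enolase, was called lower by DESeq2 (adjusted p = 0.000892) at 0, 0.102 and 0.0427 CPM against 0.545, 1.80, 2.59 and 0.365 CPM. It was low in every library beside Eno1.

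Of 16 other genes of oxygen sensing tested, 10 log2 fold changes were positive, their median over the list was 0.09, and neither tool called any. The smallest edgeR p-values were those of Hif1an, the asparagine hydroxylase that limits HIF activity, of Arntl, a circadian partner protein, of Epas1 and of Vhl, which targets HIF subunits for destruction. Their log2 fold changes were 0.81, -0.99, -1.81 and 0.70, and edgeR adjusted p ran from 0.357 to 0.420. Hif1an was at 30.0, 21.9 and 21.7 CPM against 12.2, 12.3, 17.5 and 13.8 CPM, and Vhl was at 14.9, 14.6 and 18.1 CPM against 9.01, 8.48, 11.7 and 9.75 CPM. Neither overlapped between the groups. Epas1 was low in every library, at 0.0900 to 0.120 RPKM in the Dicer1-deleted libraries against 0.170 to 0.670 RPKM in the controls. In this list 2 genes were without overlap as higher and 2 as lower, beside 3.86% and 5.44% of all genes tested. Egln2 overlapped, with a log2 fold change of 0.62 ± 0.39 (SE).

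Of 36 other targets tested, 17 log2 fold changes were positive, with a median of -0.03. Among them DESeq2 called Vldlr as lower. This lipoprotein receptor gene had no read in any Dicer1-deleted library and was at 2.35, 1.62, 2.30 and 0.319 CPM in the controls (DESeq2 adjusted p = 1.19e-06, edgeR adjusted p = 0.111). Vegfa, the classic secreted target, was at 33.1, 126 and 36.7 CPM against 65.9, 65.8, 46.4 and 61.4 CPM. Here too Dicer1-deleted replicate 2 was far above replicates 1 and 3, and the log2 fold change was 0.12 ± 0.46 (SE).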

How the data were processed

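RNA was sequenced from 3 Dicer1-deleted and 4 control libraries. Per the labels' protocols, cDNA was amplified from low-input total RNA with a SMARTer kit and tagged with Nextera XT, which keeps no strand. Per the file headers, the deposited tables give each gene's count of uniquely placed reads, an expected count that also takes a share of multiply placed reads, and an RPKM value, all made by the authors. Bowtie2 is named in the submitters' processing notes. For its version, the genome build, the annotation and the counter: not given in the sources used here.

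Unique counts were the input of the tests, and the deposited expected counts, rounded, were an alternative. The RPKM values deposited by the authors were used only for levels between genes. A gene missing from a library's list was given 0 reads there. Symbols and positions came from GENCODE mouse release 21 (GRCm38), with 21798 of 24084 Ensembl IDs matched. Groups were compared in edgeR 4.0.16 (R 4.3.3) with filterByExpr, TMM scaling, the quasi-likelihood test, two-sided, and Benjamini-Hochberg adjustment over 16226 genes at 0.05. No covariate was used. The biological coefficient of variation was 45.1%, so except for genes with few reads, spread between libraries limits precision more than the depth of 43.0 to 51.2 M reads. No unique count in any library was an odd number, so the counts may exceed the number of independent fragments. The tests took the counts as deposited. For genes with few reads, such as Vldlr and Eno2, p-values may therefore be too small. PCR reads without molecular identifiers are not independent molecules. DESeq2 1.42.0, limma-voom (limma 3.58.1), other scalings, other filters, the L code of the titles, multiply placed reads, a transcript length correction and leaving out each library were alternatives. DESeq2 without each library, and other scalings of the count of genes highest in control replicate 4, were added after seeing the data. The workflow was tested on simulated data. Library pairs were compared, and at most 0.592% of genes held identical counts.

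The 32 genes and all lists were chosen with earlier results of these data known. Values in every library are given for genes that DESeq2 or edgeR called, with an unadjusted edgeR p under 0.05, without overlap between groups, among the 5 most or 5 least variable over the controls, among the 3 most abundant, or named beforehand as key steps. Of other pathway lists, called genes or up to 4 with the smallest p are named. A result for another gene of the list of other targets is not reported here.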

Additional observations from a re-analysis of the deposited data

Results flagged for a closer look

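For each of the 32 genes, the highest and lowest of the 4 control libraries were compared with the nearest other control, as a share of the range (Dixon's ratio, at its 95% critical value). Such a library was seen for 5 of the 32 genes. The nominal rate is about 1 in 20 independent groups of 4. The 32 genes share the same 4 controls and are not independent, so their count cannot be set against that rate. The share over all genes tested was not computed. Control replicate 4 was far above the other 3 controls for Slc2a1 at 342 CPM, for Hk2 at 188 CPM and for Ndrg1 at 92.7 CPM. Control replicate 3 was far below the other 3 for Gapdh at 132 CPM and for Higd1a at 25.0 CPM.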

How the results depend on the processing

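edgeR called 4 genes in all, 42 with no count filter, 10 with the transcript length trend removed, 1 with at least 10 CPM in 3 libraries, 0 with the L code as covariate and 0 to 3 without single libraries (0 without Dicer1-deleted replicate 1 or any control, 2 without replicate 3 and 3 without replicate 2). limma-voom called 2 and DESeq2 405. Of the 32 genes, DESeq2 called 1, P4ha2, and 0 to 2 without single libraries. All edgeR and limma-voom alternatives called 0 of the 32. The number with a positive log2 fold change, 11, was 7 without TMM factors and 7 to 16 without single libraries. The median coefficient of variation over the controls, 27.7%, was 17.8% without control replicate 4 and up to 29.1% without another. Over 16 settings, 17 of the 32 genes changed the sign of their fold change in at least 1 and 15 in none. No paired analysis was possible because the titles number the libraries 1 to 7 and give the groups no shared replicate numbers. With 3 libraries against 4 and this spread, differences of the size seen for most of the 32 genes could not be told from 0.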

Other observations

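Genes downstream and beside glycolysis were also read. Of 29 tested genes of pyruvate dehydrogenase and the tricarboxylic acid cycle, 22 had a negative log2 fold change, with a median of -0.22. Among all genes tested 47.4% were negative. Neither edgeR nor DESeq2 called any of the 29. At an unadjusted edgeR p under 0.05, 0 of them passed. The groups did not overlap for Pdhb, a subunit of pyruvate dehydrogenase, and Mdh2, the mitochondrial malate dehydrogenase, both lower in Dicer1-deleted macrophages. These 2 of 29 stand beside 5.44% of all genes tested that were without overlap in that direction. Pdhb was at 60.1, 54.2 and 56.5 CPM against 110.1, 69.0, 89.0 and 60.4 CPM, and Mdh2 was at 463, 127 and 491 CPM against 648, 505, 758 and 497 CPM. The lowest control and the highest Dicer1-deleted library lay side by side in both genes. Of 9 pentose phosphate genes, 7 had a positive log2 fold change, against 52.6% of all genes tested, with a median of 0.15, and none was called. G6pdx, which opens that pathway, was at 163, 118 and 139.6 CPM against 99.1, 109, 82.1 and 116 CPM, without overlap, and differed by 0.47 ± 0.25 on the log2 scale (SE, edgeR adjusted p = 0.739). Of all genes tested, 3.86% were without overlap in that direction.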
